A study of Mus musculus with 24 samples.

Results

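A set of 1563 chromatin regions was closed before SOX9 induction and opened both in mouse epidermis and in cultured epidermal cells. The regions were chosen from 134312 union regions, made by merging the ATAC-seq peaks of 12 deposited lists that shared at least 1 bp on chromosomes 1 to 19 and X, and they made up 1.16% of these. Each had no peak in the 3 lists of uninduced or early cells (D0, W1 and noDOX) and a peak in the 4 lists W2, W6, W12 and WT-SOX9. The selection therefore used 7 lists, and the state of the regions in those 7 is a description. The other 5 culture lists, the DNA sequence and the position in the genome were not used for it.

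All samples came from male CD1 mice carrying rtTA under the Krt14 promoter (K14rtTA), which limits doxycycline (DOX) induction to keratinocytes that use this promoter. The in vivo groups were K14rtTA; TRE-myc-Sox9 epidermal stem cells (EpdSCs), sorted from back skin at postnatal day 21 before DOX (D0), day 28 (W1), day 35 (W2) and day 63 (W6), and from skin grafted on Nude hosts after 12 weeks of SOX9 (W12). At W12 the time and the graft cannot be told apart. The culture groups were keratinocytes from back skin given 1 µg/ml DOX, with SOX9 transgenes that were wild type (WT-SOX9), lacked the DNA-binding HMG domain (ΔHMG-SOX9) or lacked the transactivation domain (ΔTA-SOX9). Lentivirus added FLAG-AFOS to K14rtTA cells (AFOS) or to K14rtTA; TRE-myc-Sox9 cells (SOX9+AFOS), and ARID1a to K14rtTA; TRE-myc-Sox9 cells (SOX9+ARID1a). The study's methods describe lentivirus for all 3 SOX9 versions in culture as well. The uninduced list (noDOX) belongs to the wild-type line, and the other culture groups were read without an uninduced list of their own. The labels give a culture time of 3 days for 1 of the 2 samples of WT-SOX9, ΔHMG-SOX9 and ΔTA-SOX9.

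Each of the 12 groups had 2 samples, whose reads were merged before peaks were called. Several mice were combined in each in vivo sample. A single list per group leaves no spread between replicates, so no test was run, and the 95% intervals below cover counting error over regions only. Regions of 1 list are not replicates of a condition. The lists held 49458 to 75956 peaks, and the read depth behind them is unknown, so the absence of a peak means only that none passed the authors' threshold. A list from many cells also cannot tell more cells with an open region from a more open region in each cell.

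SOX9 is a transcription factor of the SOX family, which binds a short AT-rich sequence through its HMG domain and bends the DNA. In skin it is made by hair follicle stem cells (HFSCs) and the outer root sheath, and not by normal interfollicular epidermis. AP1 factors are dimers of FOS and JUN proteins that occupy many keratinocyte enhancers, and AFOS is a dominant-negative FOS that pairs with them and prevents their DNA binding. ARID1a is a subunit of the SWI/SNF complex, which moves and evicts nucleosomes.

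The central 200 bp of 7 members are shown for the short sequences that the results turn on, from the RefSeq GRCm38 (mm10) genome that the peak coordinates use. Capitals mark SOX matches, which are the core ACAAAG or ACAATG and the longer ACAATAG or ACAATGG on either strand. Capitals also mark AP1 matches, spelled TGACTCA or TGAGTCA. The Dock2 and Foxc1 members hold an inverted pair of SOX sites facing each other. The Tcf7l2 member has a single site, and the Rgma member was the strongest of all. The Man2a1, Ppm1h and Mtmr10 members each hold an AP1 match. Members are named by the nearest protein-coding transcription start site (TSS), which says where a region lies and not which gene it acts on.
Dock2 member, chr11:34739010-34739209, plus strand: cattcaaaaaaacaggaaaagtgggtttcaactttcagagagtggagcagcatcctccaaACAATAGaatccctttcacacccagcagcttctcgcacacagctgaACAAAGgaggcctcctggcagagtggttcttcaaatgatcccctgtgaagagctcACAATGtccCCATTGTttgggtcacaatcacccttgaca
Foxc1 member, chr13:31900336-31900535, plus strand: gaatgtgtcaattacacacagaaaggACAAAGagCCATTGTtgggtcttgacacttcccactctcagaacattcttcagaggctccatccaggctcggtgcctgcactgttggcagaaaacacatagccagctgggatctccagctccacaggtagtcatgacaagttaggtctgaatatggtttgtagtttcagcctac
Tcf7l2 member, chr19:55788457-55788656, plus strand: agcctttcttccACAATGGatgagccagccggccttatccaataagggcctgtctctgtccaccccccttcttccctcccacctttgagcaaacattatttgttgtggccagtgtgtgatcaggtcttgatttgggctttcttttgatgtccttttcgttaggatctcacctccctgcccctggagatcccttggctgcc
Rgma member, chr7:73197034-73197233, plus strand: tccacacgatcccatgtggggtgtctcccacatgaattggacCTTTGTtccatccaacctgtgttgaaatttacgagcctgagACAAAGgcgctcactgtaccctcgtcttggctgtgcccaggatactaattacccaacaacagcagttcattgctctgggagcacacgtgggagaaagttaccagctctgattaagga
Man2a1 member, chr17:64645199-64645398, plus strand: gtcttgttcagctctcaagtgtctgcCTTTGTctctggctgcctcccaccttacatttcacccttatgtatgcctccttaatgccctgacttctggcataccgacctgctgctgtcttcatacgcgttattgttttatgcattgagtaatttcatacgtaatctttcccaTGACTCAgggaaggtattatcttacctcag
Ppm1h member, chr10:122630205-122630404, plus strand: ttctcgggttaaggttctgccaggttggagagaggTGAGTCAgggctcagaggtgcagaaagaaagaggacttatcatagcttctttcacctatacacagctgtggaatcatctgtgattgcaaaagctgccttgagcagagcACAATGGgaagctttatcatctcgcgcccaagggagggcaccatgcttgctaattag
Mtmr10 member, chr7:64321772-64321971, plus strand: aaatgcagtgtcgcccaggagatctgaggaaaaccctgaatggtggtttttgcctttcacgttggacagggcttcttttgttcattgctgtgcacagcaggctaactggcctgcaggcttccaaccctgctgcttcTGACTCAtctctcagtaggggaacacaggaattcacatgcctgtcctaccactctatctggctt

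Before the results, the lists were checked against their labels. A peak confined to the last of the 3 Sox9 exons, as a transgene without introns can add, was present at D0 with an authors' score of 13.5, at W2 with 15.1, at W6 with 9.22 and at W12 with 8.84, but was missing from the list labelled W1. In culture such a confined peak was present in noDOX (3.71), SOX9+AFOS (5.11) and SOX9+ARID1a (3.71), whereas in WT-SOX9 and ΔHMG-SOX9 a peak reached over the last exon without being confined to it, and ΔTA-SOX9 and AFOS had none there. Peaks over exons 1 and 2 scored 101 in ΔTA-SOX9 and 71.9 in ΔHMG-SOX9, against 21.2 in WT-SOX9 and, over exon 1 alone, 21.8 in noDOX and 22.8 in AFOS. SOX9+AFOS scored 13.3 and 4.61 over exons 1 and 2, and SOX9+ARID1a 6.49 and 4.14, so their exon 1 scores were the lowest of the 7 culture lists and below noDOX. Because the W1 list lacked the confined peak, the set is also given without it: 1684 regions met the rule when W1 was left out. The lists labelled AFOS and SOX9+AFOS held 8 and 7 peaks confined to Arid1a exons past the first, against 12 in SOX9+ARID1a and 0 or 1 in each of the other 9 lists, so those names stand below for the lists so labelled. The TSSs of Krt5, Krt14, Trp63, Itga6 and Itgb4, which mark basal keratinocytes, had a peak in all 12 lists. None of Ptprc, Cd3e and Lyz2 (leukocytes) had one, and of the endothelial Pecam1 and Cdh5 only Pecam1 did, in the ΔTA-SOX9 and AFOS lists. Pdgfra and Col1a1 (fibroblasts, Col1a1 in 11 lists) and Mitf (melanocytes) had TSS peaks in all 12 lists. The melanocyte gene Dct had one in the 5 in vivo lists and SOX9+AFOS, and Col1a2, Kit and Tyr had none in any list. Among HFSC markers, Krt15 had a TSS peak in all 5 in vivo lists and Cd34 and Lgr5 in W6 and W12. In culture Lgr5 had one in all 7 lists, noDOX included, and Krt15 in all but ΔTA-SOX9 and AFOS.

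The regions chosen were ordinary in strength. The authors' score is their normalized peak score, kept from 3 upwards, and it is not read here as a height of signal. Among the 1563 members it ranged from 3.03 to 90.9 at W2 (median 10.1), from 3.04 to 68.4 at W6 (median 11.5), from the threshold of 3 to 43.7 at W12 (median 7.76) and from 3.01 to 102 with WT-SOX9 (median 10.8). The median of all peaks was 9.81, 8.44, 8.41 and 9.68 in the same lists, so only at W6 were members clearly above a typical peak, with 70.0% of them over the median of their list. The score at W12 was below that at W6 in all but 309 members, with a median log2 ratio of -0.53 (quartiles -0.95 and -0.12), whereas it was -0.05 over the 58107 union regions with both peaks. From W2 to W6 the median log2 ratio was 0.12. Fold enrichment over local background, which the in vivo files also give, had medians of 7.66 at W2, 8.17 at W6 and 7.0 at W12 in members. Over all peaks of the same lists the medians were 7.11, 6.55 and 6.91. Across members, the scores of W6 and W12 had a Spearman rho of 0.70, those of W2 and W6 of 0.63, and those of WT-SOX9 with W2 of 0.28 (n = 1563 regions, which share lists). For W2 and W12 rho was 0.52, and for WT-SOX9 it was 0.26 with W6 and 0.25 with W12. These lists also chose the members, with every score at 3 or above, so the values only describe the set.

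**Figure D1:**
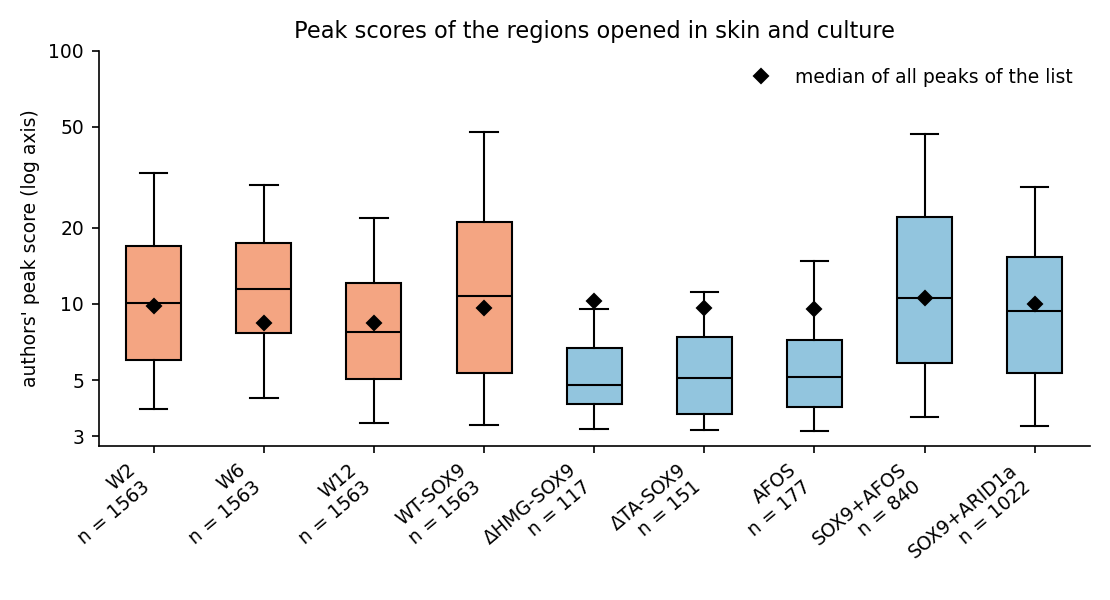
Authors' peak score (log axis) of the 1563 regions in the lists that chose them (orange) and, where they had a peak, in the other culture lists (blue). Boxes span the quartiles with the median as a line, whiskers the 5th to 95th percentile, and diamonds mark the median of all peaks of a list. Peaks in ΔHMG-SOX9, ΔTA-SOX9 and AFOS were few and low, with medians of 4.77, 5.12 and 5.13, and those in SOX9+AFOS and SOX9+ARID1a lay near their list's median.

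At the edge of the rule, 473 members (30.3%) had a score under 4 in at least 1 of the 4 lists with a peak, and 850 had at least 5 in all 4. The score threshold stood at unequal significance in vivo, with a lowest −log10 q of 14.5 for the D0 list, 9.37 for W1, 4.21 for W2, 5.74 for W6 and 10.1 for W12. With the D0 minimum applied to the W2, W6 and W12 peaks, 840 regions met the rule. Just outside, 240 regions failed only through a D0 peak, of median score 4.68, and 121 only through a W1 peak, of median score 4.33. The noDOX condition removed far more, 2152 regions, and their noDOX peaks were strong (median score 12.5, with 7.34% under 4). Requiring a peak removed 643 regions at W2, 73 at W6, 335 at W12 and 3289 with WT-SOX9. The 1563 members were 32.2% of the 4852 regions with the full pattern in skin and no noDOX peak, and 13.3% of the 11726 regions that opened with WT-SOX9 and were closed at D0 and W1.

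The strongest members, ranked by the lowest percentile that a region reached in W2, W6, W12 and WT-SOX9, lay far from promoters. The first was an intergenic region of 826 bp, chr7:73196721-73197546, 178375 bp from the TSS of Rgma, a co-receptor for BMP ligands. Its scores were 90.9 at W2, 62.3 at W6, 37.5 at W12 and 76.2 with WT-SOX9, and it kept 66.4 in SOX9+AFOS and 41.9 in SOX9+ARID1a with no peak in the other 3 lists. The Dock2 member, chr11:34738764-34739456, in an intron of this guanine nucleotide exchange factor for RAC, scored 41.8, 46.9, 29.5 and 88.8 in those lists, 65.5 in SOX9+AFOS and 50.7 in SOX9+ARID1a. The Map7 member, in an intron of a gene for a microtubule-binding protein, scored 43.7, 26.5, 29.6 and 79.6, then 43.9 in SOX9+AFOS and 61.7 in SOX9+ARID1a. All 3 kept a peak in SOX9+AFOS and SOX9+ARID1a, with scores below that of WT-SOX9 in both.

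In other strong members the fall from WT-SOX9 was larger. The Man2a1 member, in an intron of the gene for a Golgi mannosidase, scored 51.1 at W2 and 57.6 with WT-SOX9, but 4.35 in SOX9+AFOS and 17.4 in SOX9+ARID1a. The Tle1 member, near a Groucho co-repressor, scored 38.5 at W6 and 47.1 with WT-SOX9, but 11.4 in SOX9+AFOS and 6.98 in SOX9+ARID1a. For the Prkca member, in an intron of protein kinase C alpha, the WT-SOX9 score was 47.8, the SOX9+AFOS score 7.75 and the SOX9+ARID1a score 21.4. The Krr1 member went from 40.3 to 15.5 and 21. The Slc12a2 member, in an intron of Ccdc192, scored 46.0 with WT-SOX9 and 19.9 in SOX9+ARID1a, had no SOX9+AFOS peak, and had weak ΔTA-SOX9 (6.88) and AFOS (5.13) peaks. Tnfrsf11b, which encodes osteoprotegerin, had a member that scored 41.5 with WT-SOX9, 4.60 in SOX9+AFOS and 19.2 in SOX9+ARID1a, with ΔTA-SOX9 (11.1) and AFOS (6.39) peaks. The Lyzl1 member, also among the 10, scored 102 with WT-SOX9, the highest in that list among members, and had a peak in all 5 other culture lists, from 4.65 in ΔTA-SOX9 to 46.5 in SOX9+ARID1a.

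To ask which culture conditions shared these openings, the 5 lists outside the selection were read over the members. Peaks were frequent in SOX9+AFOS and SOX9+ARID1a, called below the lists with full-length SOX9 by their labels alone, and rare in the other 3. SOX9+ARID1a had a peak in 1022 of 1563 members (65.4%, Wilson 95% interval 63 to 67.7) and SOX9+AFOS in 840 (53.7%, 51.3 to 56.2). AFOS had one in 177 (11.3%, 9.85 to 13.0), ΔTA-SOX9 in 151 (9.66%, 8.29 to 11.2) and ΔHMG-SOX9 in 117 (7.49%, 6.28 to 8.90). Over all union regions the shares were 40.5% for SOX9+ARID1a, 35.7% for SOX9+AFOS, 43.7% for AFOS, 42.2% for ΔTA-SOX9 and 37.7% for ΔHMG-SOX9. Members were thus above this background in the first 2 lists and far below it in the others. Closure in noDOX, which the rule demanded, goes with a low share in any culture list, so regions chosen with the same closure are the nearer comparison. Without the noDOX condition 3715 regions met the rule, and the shares were 50.8% in ΔHMG-SOX9, 49.7% in ΔTA-SOX9, 53.8% in AFOS, 63.4% in SOX9+AFOS and 81.0% in SOX9+ARID1a.

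The 7979 regions opened in culture only, closed in all 5 in vivo lists and noDOX and open with WT-SOX9, had a SOX9+AFOS peak in 23.1% (22.2 to 24.0) and a SOX9+ARID1a peak in 31.7% (30.7 to 32.7). Members exceeded them by 30.7 percentage points (Newcombe 95% interval 28 to 33.3) and 33.7 (31.1 to 36.2). For ΔHMG-SOX9 the difference was -0.0592 points (-1.40 to 1.46) and for AFOS -1.06 (-2.71 to 0.751), so neither was resolved at this number of regions. For ΔTA-SOX9 it was 1.97 points (0.470 to 3.63). The 3289 regions opened in skin only, with the same skin pattern and no WT-SOX9 peak, had SOX9+AFOS peaks in 8.79% and SOX9+ARID1a peaks in 8.06%, near their 4.26% to 8.33% in the other 3 lists. Neither list with full-length SOX9 had a peak in 86.3% of them.

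**Figure D2:**
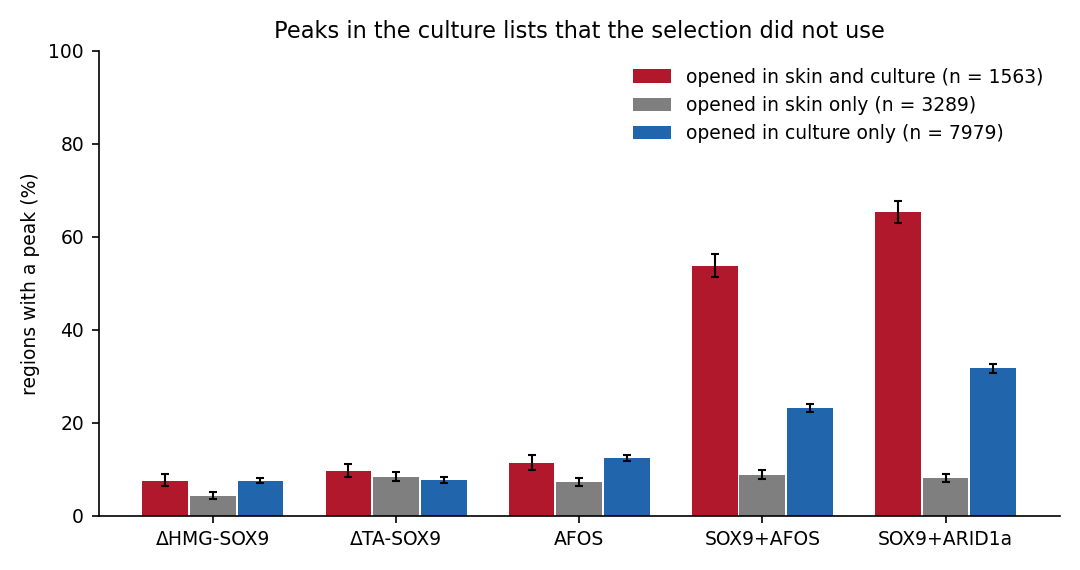
Percentage of regions with a peak in each of the 5 culture lists that the selection did not use, for regions opened in skin and culture (red, n = 1563), in skin only (grey, n = 3289) and in culture only (blue, n = 7979). Error bars are Wilson 95% intervals. The red bars reach 53.7% in SOX9+AFOS and 65.4% in SOX9+ARID1a and stay at or under 11.3% in the other 3 lists.

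Region by region, the commonest state was a peak in SOX9+AFOS and SOX9+ARID1a and in none of the other 3, in 622 members (39.8%), against 11.2% of the regions opened in culture only and 2.22% of those opened in skin only. A further 237 members had a peak in SOX9+ARID1a alone and 108 in SOX9+AFOS alone. No other culture list had a peak in 355 members (22.7%, 20.7 to 24.9), against 54.1% of the regions opened in culture only. At least 1 list with full-length SOX9 had a peak in 1146 (73.3%), whereas 62 (3.97%) had a peak only in lists without it and 23 had one in all 5. The 622 members with both had a median WT-SOX9 score of 18.6, the 237 with SOX9+ARID1a alone 10.5, the 108 with SOX9+AFOS alone 6.78 and the 355 with none 6.05. Their median W2 scores, 12.1, 10.1, 9.28 and 8.73, had the same order, and their median W12 scores, 8.16, 9.35, 6.21 and 7.11, did not.

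The state in the other lists moved with the strength of the WT-SOX9 peak. In the lowest of 4 equal ranks of members, with WT-SOX9 scores from 3.01 to 5.35, 31.2% had a SOX9+AFOS peak and 39.4% a SOX9+ARID1a peak. In the highest, from 21.1 to 102, these were 78.5% and 93.1%. ΔHMG-SOX9 and ΔTA-SOX9 went the other way, from 10.7% to 4.60% and from 17.4% to 5.12%. Regions opened in culture only had a rise over the same score ranges, from 19.3% to 54.6% for SOX9+AFOS and from 21% to 77.6% for SOX9+ARID1a. Members stood above them within each of the 4 ranges, by 11.9 to 30.9 points for SOX9+AFOS and 15.5 to 23.2 for SOX9+ARID1a, with every interval above 0. The mean of these differences was 22.2 and 19.7 points, less than the 30.7 and 33.7 without regard to score. The ranges do not even out how the sets were chosen, since members also needed W2, W6 and W12 peaks, which the other set lacked. What this adds to the differences was not tested. Members were also wider (median 672 bp against 450 bp), and with WT-SOX9 peaks alone as the regions the differences were 30.2 and 33.5 points.

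**Figure D3:**
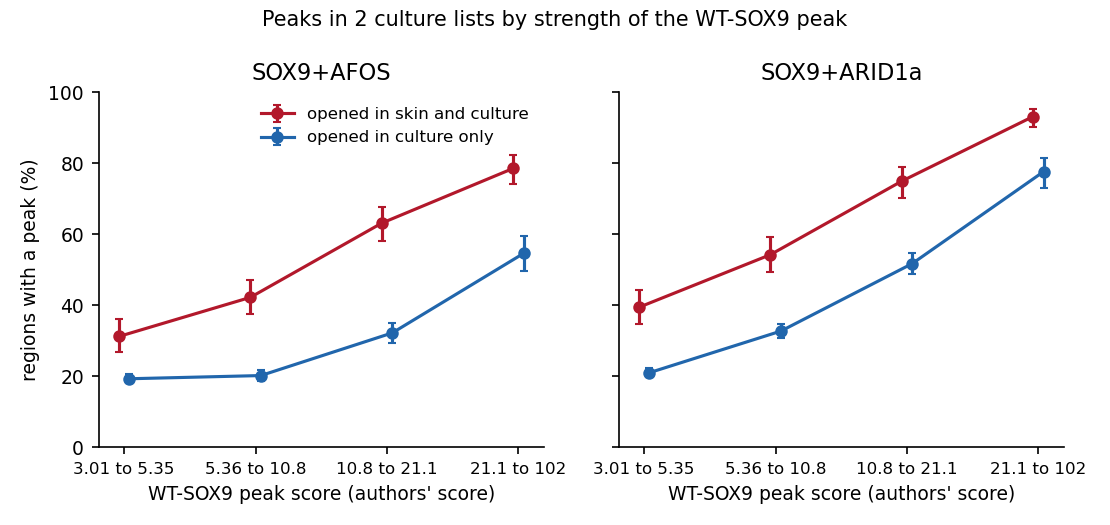
Percentage of regions with a SOX9+AFOS peak (left) or a SOX9+ARID1a peak (right) by WT-SOX9 score, in 4 ranges that hold like numbers of members, for regions opened in skin and culture (red) and in culture only (blue). Error bars are Wilson 95% intervals. Both sets rise with the WT-SOX9 score, and the red points lie above the blue ones in each range.

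Where both lists had a peak, the member's score was as a rule lower in the second construct. The median log2 ratio to WT-SOX9 was -0.65 for SOX9+ARID1a (1022 members, 26.6% higher) and -0.36 for SOX9+AFOS (840 members, 37.7% higher), against -0.01 and 0.00 over all union regions with both peaks. Members were chosen by their WT-SOX9 peak and not by the other, and the ratios cover only members whose second peak also passed the threshold. What either adds to the ratios was not tested.

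The 3 strongest members with peaks in all 5 other lists were those of Lyzl1, Fam50b and Rnf150. At the Fam50b member the score was 51.5 with WT-SOX9, 4.77 with ΔHMG-SOX9, 4.90 with ΔTA-SOX9, 6.39 in AFOS, 10.5 in SOX9+AFOS and 17.8 in SOX9+ARID1a. The Rnf150 member had 44.4, 3.83, 6.40, 4.22, 16.2 and 47.8. Peaks without full-length SOX9 were thus low at both. The 3 strongest with none were those of Trib2, a pseudokinase gene (scores 73.7 at W2, 53.5 at W6, 30.5 at W12 and 29.6 with WT-SOX9), Pde4d, a cAMP phosphodiesterase gene (30.0, 34.5, 30.0 and 22.3), and Col28a1, a collagen gene (36.8, 36.2, 24.0 and 21.5). Absence from the other lists was therefore not limited to weak regions.

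SOX sequences were frequent in the members. The sequence ACAATAG or ACAATGG, on either strand in the central 200 bp, was present in 317 members (20.3%, 18.4 to 22.3), against 6.07% of all union regions, 2.82% of the 23978 regions open in all 7 lists of the rule and 9.91% of the regions opened in skin only. Regions opened in culture only had it in 18.2%, so members exceeded them by 2.05 points (-0.0582 to 4.27), which was not resolved. The shorter core ACAAAG or ACAATG, part of which lies within ACAATGG, was present in 938 members (60.0%, 57.6 to 62.4), against 27.8% of all union regions, 37.0% opened in skin only and 59.3% opened in culture only. It occurred at least 2 times in 328 members (21%), against 5.31% of all union regions, 8.21% opened in skin only and 21.7% opened in culture only. Members were thus like the regions opened in culture only in the share with a core and with at least 2.

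An inverted pair, ACAAAG or ACAATG followed after 3 to 5 bases by its reverse complement or that of the other spelling, was rare. It was found in 25 members (1.60%, 1.09 to 2.35), in 0.915% of the regions opened in culture only, 0.486% of those opened in skin only and 0.189% of all union regions. Members exceeded the first by 0.685 points (0.120 to 1.46) and the second by 1.11 (0.517 to 1.89). The Dock2 sequence above holds such a pair near its 3′ end, and the Foxc1 sequence near its 5′ end. Of these 25, 20 had a SOX9+AFOS peak (60.9% to 91.1%), against 53.7% of all members. A SOX9+ARID1a peak was present in 17 (48.4% to 82.8%), against 65.4%, and a ΔHMG-SOX9 peak in 1 (0.710% to 19.5%), against 7.49%. Only the SOX9+AFOS interval lay above the share of all members. The 73 regions opened in culture only with a pair had SOX9+AFOS peaks in 21.9% and SOX9+ARID1a peaks in 38.4%. All regions opened in culture only had them in 23.1% and 31.7%.

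AP1 sequences were not particularly frequent. TGACTCA or TGAGTCA was present in 244 members (15.6%, 13.9 to 17.5), below the 19.4% of all union regions and the 20.2% opened in skin only, and above the 11.0% opened in culture only, with a difference from the last of 4.64 points (2.79 to 6.64). Both a SOX match (ACAATAG or ACAATGG) and an AP1 match occurred in 48 members (3.07%), against 1.10% of all union regions. Among the other 15 motifs searched, the C/EBP sequence TTGCNNAA was present in 12.5% of members, against 9.12% opened in culture only and 13.3% opened in skin only. The RUNX sequence TGTGGT was present in 18.5% (19.4% and 17.8%) and the GATA sequence AGATAA in 11.0% (12.8% and 8.76%), within 3 points of both sets. The ETS sequence CCGGAAG, common in regions open in all 7 lists (5.37%), was present in 0.960% of members. CTCF matched in 0.896% against 1.87% of all union regions. The TEAD sequence GGAATG was present in 13.6% of members, the TCF sequence CTTTGAA in 5.12% and the T-box sequence AGGTGTGA in 1.28%, against 15.5%, 4.17% and 1.28% of all union regions. Matches are letters in the reference sequence, and binding was not measured in these files.

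Matches gathered at the summits of the W2 peaks. The SOX core had 55.4 matches per 100 members within 50 bp of the W2 summit and 19.6 per 100 bp from 200 to 300 bp on both sides, a ratio of 2.82. In regions opened in skin only these were 25.4 and 16.9, a ratio of 1.51. AP1 matches had 12.5 and 1.89 in members, a ratio of 6.61, and 13.7 and 1.82 in regions opened in skin only. The T-box sequence, searched as a control, had 0.704 and 0.288 in members, from 11 and 9 matches, a ratio of 2.44 that rests on few matches, and a ratio of 1.46 in regions opened in skin only. Around the centre of the WT-SOX9 peak the SOX core had a ratio of 2.51 in members and 2.40 in regions opened in culture only. In 625 members (40.0%) the central 200 bp held no SOX core.

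**Figure D4:**
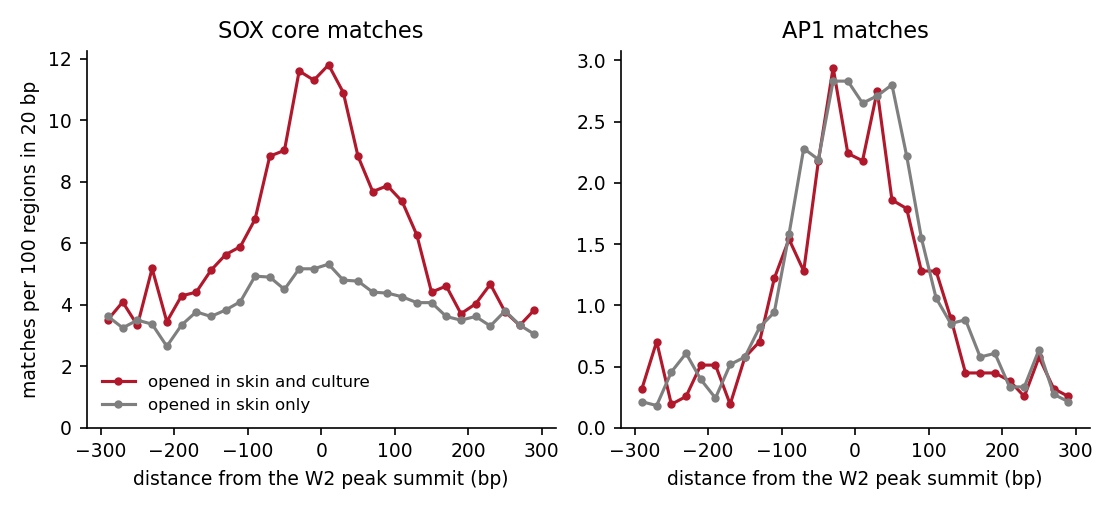
Matches per 100 regions in 20 bp steps against distance from the W2 peak summit (bp), for the SOX core ACAAAG or ACAATG (left) and AP1 (right), in regions opened in skin and culture (red) and in skin only (grey). SOX core matches are most frequent near the summit in both curves, with a centre to flank ratio of 2.82 in red and 1.51 in grey, and the AP1 ratios are 6.61 and 7.50.

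The number of SOX cores moved with the state in the other lists. The members with no core had a ΔHMG-SOX9 peak in 11.4%, a ΔTA-SOX9 peak in 15.2% and an AFOS peak in 16.6%, and members with at least 2 in 2.74%, 3.05% and 6.71%. For SOX9+AFOS the share was 49.1% with none, 55.1% with 1 and 60.1% with at least 2, and for SOX9+ARID1a 63%, 65.6% and 69.5%. The median WT-SOX9 score was 8.88, 10.8 and 15.0 in the same 3 groups. In regions opened in culture only the SOX9+AFOS share fell instead, from 26.5% to 23.0% and 16.8%, while their median WT-SOX9 score stayed between 5.05 and 5.84. Intervals for the SOX9+AFOS difference between members with and without a core were 2.65 to 12.7 points, and for SOX9+ARID1a -0.895 to 8.76.

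AP1 matches separated the members in SOX9+AFOS, 1 of the 2 lists with AFOS, and much less in AFOS without SOX9, where the difference had the opposite sign. A SOX9+AFOS peak was present in 57 of 244 members with an AP1 match (23.4%, 18.5 to 29.1) and in 783 of 1319 without (59.4%, 56.7 to 62.0), a difference of -36.0 points (-41.5 to -29.7). In SOX9+ARID1a the shares were 62.3% and 66.0%, a difference of -3.66 points (-10.4 to 2.73). Members with an AP1 match had peaks somewhat more often in the lists without full-length SOX9, 11.1% against 6.82% in ΔHMG-SOX9, 13.5% against 8.95% in ΔTA-SOX9 and 16.0% against 10.5% in AFOS, where the difference was 5.52 points (1.09 to 10.9). Where the peak remained in SOX9+AFOS, its median log2 ratio to WT-SOX9 was -0.77 with an AP1 match (57 members) and -0.34 without (783).

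The difference was found with and without the longer SOX spelling, ACAATAG or ACAATGG, and members without it can still hold the shorter core, by which they were not split here. Members with both a SOX match (ACAATAG or ACAATGG) and an AP1 match had a SOX9+AFOS peak in 12 of 48 (25%), those with SOX alone in 175 of 269 (65.1%), those with AP1 alone in 45 of 196 (23.0%) and those with neither in 608 of 1050 (57.9%). WT-SOX9 scores also moved with AP1, with a median of 6.89 in members with a match and 11.7 without, whereas W12 scores were higher with a match (9.34 against 7.43). Within the 4 ranges of WT-SOX9 score the difference in SOX9+AFOS was -22.8, -31.9, -31.7 and -37.3 points from the weakest to the strongest, and every interval lay below 0. RUNX, TEAD, GATA and C/EBP matches separated members by no more than 4.36 points in any of the 5 lists, with every interval including 0. In regions opened in culture only, a SOX9+AFOS peak was present in 8.91% with an AP1 match and 24.8% without. Other matches separated those regions too in SOX9+AFOS, TEAD by 8.25 points (5.64 to 10.9), GATA by -5.28 (-7.76 to -2.59) and RUNX by 3.05 (0.701 to 5.50), and AP1 separated them in the AFOS list by 14.5 (11.6 to 17.5). Without the noDOX condition the difference among the 3715 regions was -14.2 points (-17.8 to -10.6).

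**Figure D5:**
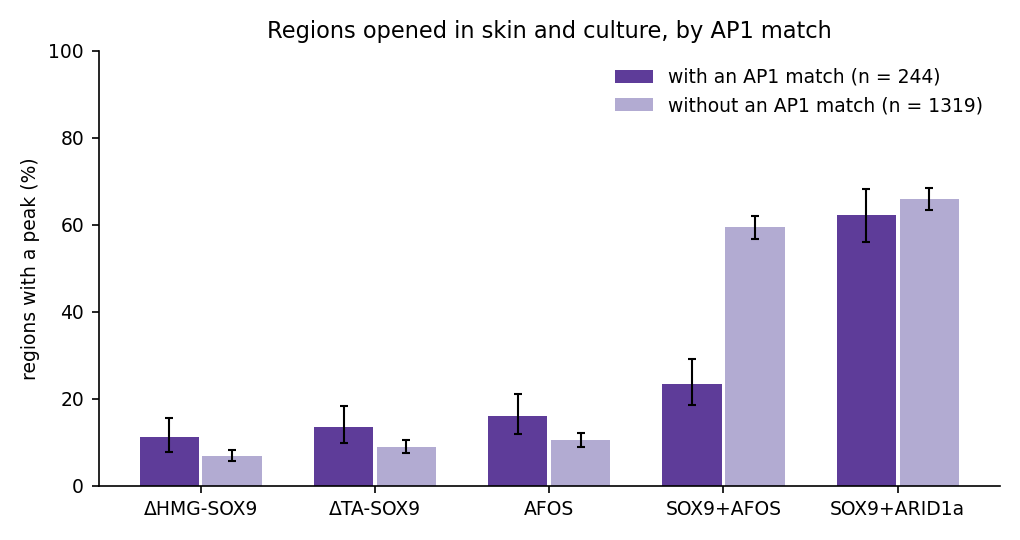
Percentage of members with a peak in each of the 5 other culture lists, for the 244 with an AP1 match in the central 200 bp (dark) and the 1319 without (light). Error bars are Wilson 95% intervals. The bars differ most in SOX9+AFOS, 23.4% against 59.4%, and are close in SOX9+ARID1a.

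The 3 strongest members with an AP1 match, no SOX9+AFOS peak and a SOX9+ARID1a peak were those of Ppm1h, Atp6v0e and Mtmr10. The Ppm1h member, chr10:122629961-122630649, lies 48473 bp from the TSS of this phosphatase gene and also holds a SOX match. It scored 23.7 at W2, 25.4 at W6, 21.2 at W12, 51.1 with WT-SOX9 and 14.1 in SOX9+ARID1a. The Atp6v0e member, in an intron of a proton pump subunit gene, scored 23.1, 24.6, 19.2, 28.2 and 12.8 in the same lists. The Mtmr10 member, in an intron of a myotubularin-related gene, scored 21.1, 21, 15.8, 35 and 14.8, with low ΔHMG-SOX9 (5.77) and ΔTA-SOX9 (4.42) peaks. The Man2a1 member above, also with an AP1 match, kept a SOX9+AFOS peak at 4.35 of a WT-SOX9 score of 57.6.

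The members were distal. Only 37 (2.37%, 1.72 to 3.25) had their centre within 1 kb of a protein-coding TSS, against 11.1% of all union regions and 42.5% of regions open in all 7 lists, and 374 (23.9%) were more than 100 kb away. By centre, 769 (49.2%) lay in introns, 757 (48.4%) between genes and 37 (2.37%) in exons. Regions opened in skin only and in culture only were placed alike, with 3.47% and 1.75% within 1 kb of a TSS. GC content had a median of 46.0% in members, 47.5% and 43.8% in those 2 sets and 52.9% in regions open in all 7 lists. The median member lay 10300 bp from the nearest D0 peak and 11600 bp from the nearest noDOX peak, and 103 (6.59%) were within 1 kb of a D0 peak, so most were not extensions of an open site. Members lay apart from each other, with another member within 50 kb for 322 (20.6%). They were spread over all 20 chromosomes read, from 0.863% of the union regions on chromosome 19 to 1.44% on chromosome 10.

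The 1563 members had 1276 different nearest protein-coding genes, 5.90% of the 21644 genes with an annotated TSS. A gene in sparse surroundings is nearest to more sequence, which these counts do not correct, and gene expression was not read here. Of 14 lists of genes, HFSC and outer root sheath transcription factors had 5 of 16 genes nearest to a member (Sox9, Tcf7l2, Nfatc1, Nfib and Foxc1) and follicle surface and matrix markers 5 of 20 (Lgr6, Lrig1, Postn, Ccn2 and Epcam). SOX factors had 5 of 15 (Sox2, Sox5, Sox6, Sox9 and Sox13), TGF-beta and BMP genes 5 of 19 (Tgfb2, Tgfb3, Tgfbr2, Bmp2 and Inhba), RUNX factors 2 of 4 (Runx1 and Runx2), WNT genes 4 of 26 and integrin and basement membrane genes 4 of 19. Hedgehog genes had 1 of 14, epidermal transcription factors 2 of 17, epidermal differentiation genes 2 of 17, EMT and cytoskeleton genes 2 of 18, cartilage matrix genes 2 of 18, and AP1 factors (12) and chromatin cofactors (10) none. With a gene body and 50 kb on both sides in place of the nearest TSS, 9.44% of all genes held a member, and the first 2 lists had 3 of 16 and 3 of 20, SOX factors 2 of 15 and TGF-beta and BMP genes 2 of 19, fewer than by nearest TSS. Hedgehog genes then had 5 of 14 (Cdon, Gas1, Sufu, Disp1 and Kif7) and epidermal differentiation genes 4 of 17 (Flg2, Tgm1, Dsc1 and Cdsn), so the order of the follicle and epidermal differentiation lists turned with the assignment.

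Among HFSC transcription factors, the Tcf7l2 member, chr19:55788287-55788827, lies in an intron of this WNT effector gene. It scored 30.7 at W2, 22.3 at W6, 11.2 at W12, 31.8 with WT-SOX9, 27.4 in SOX9+AFOS and 19.9 in SOX9+ARID1a, with no peak in the other 3 lists. The Foxc1 member, chr13:31900087-31900784, lies 93803 bp from the TSS of this forkhead factor gene, in an intron of Gmds. Its scores were 42.0, 23.0, 23.4 and 12.2 in the lists that chose it, then 23.7 in SOX9+AFOS and 17.8 in SOX9+ARID1a, both above WT-SOX9. The Nfib member, in an intron of this nuclear factor I gene and with an AP1 match, scored 15.4, 22.5, 9.20 and 15.4 and had no peak in the other 5 lists. The Tcf7l2 and Foxc1 members thus shared the commonest state, and the Nfib member did not.

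Of the follicle markers, the Lgr6 member, in an intron of this R-spondin receptor gene, scored 14.2 at W2, 21.9 at W6, 8.62 at W12, 13.4 with WT-SOX9, 3.78 in SOX9+AFOS and 8.20 in SOX9+ARID1a. The Ccn2 member, 52667 bp from the TSS of the connective tissue growth factor gene, scored 11.7 with WT-SOX9 and 49.7 in SOX9+AFOS, with peaks in ΔTA-SOX9 (3.23) and AFOS (10.1). The Lrig1 member, near an EGF receptor inhibitor that marks follicle cells, had an AP1 match, a WT-SOX9 score of 7.67 and peaks of 5.58 in ΔHMG-SOX9 and 5.36 in AFOS, and none with SOX9+AFOS or SOX9+ARID1a. Only the first of these followed the commonest state.

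Among SOX genes, the Sox2 member, 117673 bp from the TSS, scored 30.5 at W2, 10.6 at W6, 12.2 at W12, 66.4 with WT-SOX9 and 21.1 in SOX9+ARID1a, and had no SOX9+AFOS peak. The Sox13 member scored 24.5, 21.4, 10.2 and 47.6, then 26 in SOX9+AFOS and 18.5 in SOX9+ARID1a. The Sox5 member, in an intron, had 3 SOX cores in its central 200 bp and scored 10.6, 12.5, 14.7, 27.1, 5.55 and 7.16 in these 6 lists. RUNX factors take part in follicle stem cell activation. Of 3 members nearest to Runx1, 2 lie in its introns, 28309 and 41820 bp from a TSS, with WT-SOX9 scores of 13.1 and 27.9. Their scores were low at W2 (5.85 and 4.92) and were 18.1 and 8.21 at W6 and 13.0 and 5.26 at W12. The third, 276119 bp away, scored 14.8 at W2 and 7.68 with WT-SOX9. All 3 had a SOX9+AFOS peak (17.6, 3.24 and 3.32) and 1 a SOX9+ARID1a peak (6.08).

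For signalling genes, the stronger of 2 members near Gas1, a Hedgehog co-receptor, scored 21.1 at W2, 32.4 at W6, 17.4 at W12 and 10.7 with WT-SOX9, and of the other lists only ΔTA-SOX9 had a peak (6.06). The Fzd1 member, near a WNT receptor gene, held an AP1 match and scored 16.2, 31.5, 15.5 and 21.4, with 19.1 in SOX9+ARID1a and no SOX9+AFOS peak. The Lrp6 member, 3015 bp from the TSS of a WNT co-receptor gene, scored 21 with WT-SOX9 and 3.41 in SOX9+ARID1a. Sfrp1, a secreted WNT antagonist gene, had an intronic member that scored 6.25 with WT-SOX9 and more in SOX9+AFOS (18) and SOX9+ARID1a (9.86). The stronger Bmp2 member, 234297 bp from the TSS, scored 19.9, 17.7, 20.7 and 37.4 in the 4 lists of the rule and 7.52 in SOX9+ARID1a, and the weaker had no peak in the other 5 lists. The Inhba member, nearest to the gene of an activin subunit at 663967 bp, scored 20.4 with WT-SOX9, 18.4 in SOX9+AFOS and 10.2 in SOX9+ARID1a.

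In an intron of Lama3, a laminin gene of the basement membrane, a member scored 14.9, 24.8, 14.1 and 16.9 in the lists of the rule and 3.35 in SOX9+ARID1a. The Col4a1 member (in Col4a2) and the Itgb5 member scored 17 and 5.44 with WT-SOX9, and 3.30 to 5.35 in the lists with SOX9 and AFOS or ARID1a. Near the cartilage gene Comp a member scored 16.2 with WT-SOX9, 8.21 in SOX9+AFOS and 11.9 in SOX9+ARID1a. At a TSS of Wwp2, a ubiquitin ligase gene, a member scored 20.8 with WT-SOX9 and had a peak in all 5 other lists (4.71 to 11.5), while an intronic one scored 35 with WT-SOX9, 27.1 in SOX9+AFOS and 22.4 in SOX9+ARID1a. The Zeb2 member lay 1535431 bp away and scored 40.6 with WT-SOX9, 5.36 in AFOS and 8.65 in SOX9+ARID1a, and the Tpm1 member scored 3.62 and had no peak in the other 5. In the epidermal lists, the members nearest to Gata3 (485964 and 515836 bp away), Dsc1 (5863 bp) and Flg2 (24982 bp) had WT-SOX9 scores of 3.21 to 6.74 and no peak in the other 5 lists, and the Tfap2c member (137118 bp) had 4.35 with WT-SOX9 and 4.24 in SOX9+ARID1a.

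Most genes had 1 member nearest (1063), and 4 had at least 5. Sema6a, which encodes a semaphorin, had 7 on chromosome 18, 2 of them in its introns, with WT-SOX9 scores from 4.10 to 33.2. None had a SOX9+AFOS peak and 2 a SOX9+ARID1a peak (5.56 and 4.53). The 5 nearest to Tcf4, a bHLH factor gene, scored 3.04 to 78.9 with WT-SOX9, and 4 had a SOX9+AFOS peak and 2 a SOX9+ARID1a peak. The 5 nearest to Pde4d included 1 only 796 bp from a TSS within the gene, and only 1 of the 5 had peaks in SOX9+AFOS (3.32) and SOX9+ARID1a (8.65). Those nearest to Nfe2l3, a gene of the CNC bZIP family, also numbered 5, led by 1 in an intron with 50.1 in WT-SOX9, 7.56 in SOX9+AFOS and 22.2 in SOX9+ARID1a. Another 13 genes had 4 members each, and Ppm1h was taken from these for its strongest member. Of its 4, 2 had a SOX9+ARID1a peak (14.1 and 7.56) and 1 a SOX9+AFOS peak (5.01). Members around 1 gene therefore differed in their states in the other lists.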

How the data were processed

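ATAC-seq peak lists of 12 groups were used, 5 in vivo and 7 in culture, with 2 samples each. The authors aligned reads to mm10 with PEPATAC, merged both replicates and called peaks with MACS2 (version 2.1.1 in the submitters' processing notes, which also name Bowtie2 2.2.9, SAMtools 1.9 and Picard 2.3.0). The deposited score is the authors' normalized peak score, kept from 3 upwards. The in vivo files also hold the fold enrichment over local background and the −log10 q-value that the authors' peak caller gave. In both lists with AFOS and the one with ARID1a, the deposited peak names carry the word fragments, which the other 9 lack, and whether calling differed is not given in the sources used here.

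Here peaks on chromosomes 1 to 19 and X were merged, a region's score being the highest of its peaks. Shares have Wilson and differences Newcombe 95% intervals. Merging, the rule and the motif search were tested on simulated data. The comparison sets were defined on the 7 lists of the rule. A total of 17 motifs were sought on both strands in the central 200 bp of each region, apart from the shorter SOX core and its pair. Regions were placed by the GENCODE basic annotation. Python 3.11.15, pandas 2.3.3 and numpy 2.4.6 were used.

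Members named were the 10 with the highest lowest percentile over the lists with a peak, up to 3 per gene list, those of the 5 genes with most members (the last, Ppm1h, chosen among 13 genes tied at 4 by its strongest member), and the 3 highest of each of 4 states in the other lists. The members, gene lists and motifs were chosen with earlier results of these data known. Alternatives were scores of at least 5, lists of equal size, WT-SOX9 peaks as regions, a distance of 500 bp from absent peaks, the rule less 1 list, other motif windows and spellings, and other gene assignments. Chromosome 18 sequence is not shown.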

Additional observations from a re-analysis of the deposited data

Results flagged for a closer look

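Peaks confined to Arid1a exons past the first (within 100 bp of an exon) numbered 8 in the list labelled AFOS, with scores up to 8.69, and 7 in the list labelled SOX9+AFOS, with scores up to 7.86. They stood out because neither label names Arid1a. Of the remaining lists, 1 such peak was found in ΔHMG-SOX9, in ΔTA-SOX9 and in noDOX, and 0 in vivo or with WT-SOX9. SOX9+ARID1a had 12, with scores up to 38.2. Their part in the states of the members was not tested.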

How the results depend on the processing

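No paired analysis was possible because the 2 replicates of each group were pooled before peaks were called. Of 134 recomputed values, 87 stayed within the interval (for the number of members, within 1.5 times) of the value reported, 47 moved and none changed sign.

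The number of members was 850 with a score of at least 5 for the peaks that had to be present and 840 with the −log10 q of D0's weakest peak as a minimum (chosen after seeing the data, like W2 summits and the AP1 difference over whole regions, within ranges and without SOX matches), since both keep fewer peaks. It was 3715 without the noDOX condition, and the shares were then 50.8% in ΔHMG-SOX9, 49.7% in ΔTA-SOX9, 53.8% in AFOS, 63.4% in SOX9+AFOS and 81.0% in SOX9+ARID1a, SOX matches 14.1%, AP1 matches 25.3% and the AP1 difference in SOX9+AFOS -14.2 points. The low shares in lists without full-length SOX9 were therefore not found without this condition. Over the 8 other settings the number ranged from 1053 to 1898.

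In the order ΔHMG-SOX9, ΔTA-SOX9, AFOS, SOX9+AFOS and SOX9+ARID1a, shares were 5.41%, 7.29%, 8.94%, 60.0% and 75.6% with present peaks of at least 5, and 5.0%, 7.38%, 8.57%, 58.5% and 71.9% with the −log10 q minimum. With scores of at least 5 in every list the first 2 and the fourth were 6.04%, 6.30% and 50.3%, and with lists of equal size the first 3 were 6.17%, 7.03% and 7.41%. Without W12 the SOX9+ARID1a share was 62.1%.

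The SOX9+AFOS excess over regions opened in culture only was 27.7 points with scores of at least 5 and with lists of equal size, 33.9 with present peaks of at least 5, 35.4 with the −log10 q minimum and 22.2 within ranges of WT-SOX9 score. For SOX9+ARID1a it was 36.9 with lists of equal size, 29.9 without W12, 40.2 with the −log10 q minimum and 19.7 within ranges.

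SOX matches were present in 22.9% with present peaks of at least 5, 23.2% where skin peaks covered most of the WT-SOX9 peak, 38.0% over whole regions, 60.0% with the core spelling and 23.0% at W2 summits. AP1 matches were present in 17.5% with scores of at least 5, 31.2% over whole regions and 19.4% at W2 summits. The AP1 difference in SOX9+AFOS was -28.3 points over whole regions and ranged from -36.1 to -30.9 under the other alternatives that kept noDOX. Within 5 kb of a TSS lay 9.40%. The cause of these shifts was not tested beyond what each setting does. Without read depth, peaks missed in a shallow list cannot be told from closed regions.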
